A study of Mus musculus with 55 samples.

Results

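This report describes 10 transcription factors of the naive pluripotent state (Klf4, Klf2, Klf5, Esrrb, Tfcp2l1, Tbx3, Zfp42, Prdm14, Nr5a2 and Nr0b1) as mouse embryonic stem (ES) cells leave mitosis. They were taken by name from a list, and all 10 are among the 9911 genes measured in CCNA-GFP cells and the 10237 measured in CTCF-AID cells, 9574 of which are shared. The values are TPM, a share of all transcripts corrected for transcript length, of the pre-mRNA, the unspliced transcript that still holds the introns and is soon processed, so that its level follows ongoing transcription.

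Both lines derive from E14Tg2a ES cells of strain 129/Ola and were grown in serum and LIF. CCNA-GFP cells carry a fluorescent cyclin A reporter of the cell cycle. CTCF-AID cells, a single clone (#EN52.9.1), are engineered so that auxin (IAA, 0.5 mM) triggers the degradation of CTCF, an architectural protein that binds insulators and promoters. IAA was added during the nocodazole block and kept on through the release, asynchronous cultures had it for 4 h, and the arm without it is called -IAA. Apart from the asynchronous cultures, cells were held with the CDK1 inhibitor RO-3306 (10 µM, 4 h), then with nocodazole (50 ng/ml, 4 h), shaken off and released. In total 55 libraries were used: 19 of CCNA-GFP, 18 of -IAA and 18 of +IAA, with 3 replicates of asynchronous and of mitotic cells in each and 2 replicates at most times from 20 to 120 min. CCNA-GFP cells at 50 min have 1 library, so that their changes have no replicate check, and no CTCF-AID library was made at 30 min among those used here. Ctcf pre-mRNA ranged from 5.74 to 10.3 TPM in -IAA and from 5.98 to 11.8 TPM in +IAA, which does not bear on the protein that IAA degrades.

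The naive state is held by a network of such factors. LIF acts through Stat3 on Klf4 and Tfcp2l1, inhibition of Gsk3 relieves Esrrb from repression by Tcf7l1, and Tbx3, Klf2 and Klf5 feed into Oct4 (Pou5f1), Sox2 and Nanog. Esrrb and Nr5a2 are orphan nuclear receptors that bind related DNA sites, and Nr0b1 (Dax1) is a receptor-like protein without a usual DNA-binding domain that binds other receptors and Oct4. Prdm14 represses genes of the primed state and Zfp42 (Rex1) is a zinc finger protein used as a marker of naive cells. The 3 Klf factors are zinc finger proteins that bind GC-rich DNA.

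The genes lie on 7 chromosomes of GRCm38 (mm10) and differ widely in length. Klf2 (ENSMUSG00000055148) spans chr8:72319033-72321656 on the plus strand, 2.62 kb, and exons cover 70.4% of it. Nr0b1 (ENSMUSG00000025056, chrX:86191764-86195947, plus strand) spans 4.18 kb and Klf4 (ENSMUSG00000003032, chr4:55527143-55532466, minus strand) 5.32 kb, with exons over 43.2% and 57.3%. Zfp42 (ENSMUSG00000051176, chr8:43295063-43306980, minus strand), Prdm14 (ENSMUSG00000042414, chr1:13113457-13127163, minus strand), Tbx3 (ENSMUSG00000018604, chr5:119670669-119684724, plus strand) and Klf5 (ENSMUSG00000005148, chr14:99298691-99315036, plus strand) span 11.9, 13.7, 14.1 and 16.3 kb. Tfcp2l1 (ENSMUSG00000026380, chr1:118627945-118685168, plus strand), Nr5a2 (ENSMUSG00000026398, chr1:136842571-136960448, minus strand) and Esrrb (ENSMUSG00000021255, chr12:86361117-86521628, plus strand) are the long genes, at 57.2, 118 and 161 kb. An antisense gene, Tbx3os1, overlaps Tbx3. The libraries are stranded, but the strand setting of the quantification is not given in the sources used here, so that reads of Tbx3 and of its antisense partner may not be told apart.

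The promoters of 3 factors that differ in timing are shown, each as the 250 bases that precede the RefSeq start site (GRCm38.p6), 5′ to 3′ on the gene's strand. Capitals mark matches, on either strand, to the octamer ATTTGCAT bound by Oct4, the GGGNGTGG motif of Klf factors, the E-box CACGTG or the TATA box TATAAA. Klf4, with the largest rise at 40 min, holds an E-box (chr4:55532476-55532725, minus strand); Zfp42, the most abundant and not called at 40 min, holds an octamer and a Klf motif (chr8:43307010-43307259, minus strand); and Tfcp2l1, whose rise was small, holds 2 Klf motifs and a TATA box (chr1:118627695-118627944, plus strand).
Klf4: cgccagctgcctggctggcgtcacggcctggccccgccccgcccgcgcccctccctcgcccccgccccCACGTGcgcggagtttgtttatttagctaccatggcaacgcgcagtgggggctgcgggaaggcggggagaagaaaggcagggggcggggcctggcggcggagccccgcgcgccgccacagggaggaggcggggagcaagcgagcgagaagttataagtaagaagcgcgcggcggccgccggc
Zfp42: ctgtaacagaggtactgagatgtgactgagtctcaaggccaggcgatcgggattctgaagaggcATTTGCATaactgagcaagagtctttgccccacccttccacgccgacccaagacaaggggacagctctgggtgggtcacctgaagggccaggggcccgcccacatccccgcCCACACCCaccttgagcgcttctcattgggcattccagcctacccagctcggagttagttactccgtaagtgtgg
Tfcp2l1: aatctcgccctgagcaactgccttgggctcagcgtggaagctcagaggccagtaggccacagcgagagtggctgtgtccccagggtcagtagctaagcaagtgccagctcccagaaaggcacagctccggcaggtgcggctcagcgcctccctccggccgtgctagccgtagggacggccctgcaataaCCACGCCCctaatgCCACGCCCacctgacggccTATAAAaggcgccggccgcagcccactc

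The octamer occurs in 1.6% of the 32851 windows of this size in the RefSeq table, the Klf motif in 15.9%, the E-box in 6.02% and the TATA box in 12.4%. The Klf4 window is 74% G or C and the Zfp42 window 58.4%, against a median of 52.4% over the table. Windows were found for 7 of the 10 factors. Also searched were TTCNNNGAA of Stat factors, found in 7.02% of windows and here upstream of 1 of 2 Esrrb start sites, TCAAGGTCA of Esrrb and Nr5a2, found in 0.387% and in none of these windows, and AGGTCA, the shorter core of that site, found in 14% and upstream of Nr5a2 and Nr0b1. These matches are a description of the letters in the window, not of binding.

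In asynchronous cells, with TPM being per length, Zfp42 was the most abundant of the factors. Its level was 33.1 ± 13.8 TPM (SD, n = 3) in CCNA-GFP, 50.6 ± 21.2 in -IAA and 44.9 ± 16.9 in +IAA, and in each arm its lowest library lay above the highest library of the next factor. Klf5 (11.3 ± 4.04 TPM) and Klf2 (7.94 ± 2.18 TPM) followed in CCNA-GFP, in the reverse order in CTCF-AID, where Klf2 reached 12.2 ± 2.64 and Klf5 8.18 ± 1.97 TPM in -IAA and their libraries did not overlap. Tbx3, Tfcp2l1, Esrrb, Nr5a2 and Klf4 lay between 2.14 and 4.69 TPM in CCNA-GFP and -IAA, and neighbours among these 5 overlapped. Below them the libraries of Klf4 and Nr0b1 overlapped in CCNA-GFP and not in -IAA. Nr0b1 (1.49 ± 1.05 in CCNA-GFP) and Prdm14 (0.655 ± 0.165) were the lowest. The tables of the 2 lines were normalised apart, and levels in one are not tested against the other.

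Markers of other cells were listed in part. Of 9 primitive endoderm markers only Lama1 was listed, at 0.20 to 2.27 TPM, and Gata4, Gata6 and Sox17 were not listed. Of 7 trophoblast markers 5 were listed in each table, with a summed level of 1.25 to 20.8 TPM, of which Krt8, Krt18 and Tfap2c are not restricted to trophoblast. Of 6 fibroblast markers none was listed in CCNA-GFP and 2 in CTCF-AID (summed 0.146 to 3.42 TPM), and Zscan4 genes and other markers of 2-cell-like cells, 3 or 4 of 6 listed, summed to 0.351 to 9.01 TPM. In CCNA-GFP the trophoblast sum was 1.25 to 3.35 TPM in mitosis and 6.01 to 12.4 TPM at 60 min, and in -IAA it was 2.67 to 3.83 and 6.75 to 18.7 TPM. Asynchronous trophoblast sums, 1.86 to 8.04 TPM in CCNA-GFP and 2.49 to 6.80 TPM in -IAA, overlapped those at 60 min. The fibroblast sum in -IAA went from 0.146–0.435 TPM in mitosis to 1.87–2.56 TPM at 60 min. In asynchronous cells it was 0.348–1.17 TPM in -IAA and 0.366–1.01 TPM in +IAA. With sums this low, the 2 genes cannot both have passed the filter described below on their asynchronous level. The gene or genes listed through released libraries had a rise favoured by that filter. The part of these markers in the factors' changes was not tested. Pou5f1 and Nanog, which define ES cells, were at 12.1 ± 3.5 and 7.11 ± 1.75 TPM (n = 3) in asynchronous CCNA-GFP, and Sox2 was not listed.

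Changes from mitosis were tested within replicates with limma on log2(TPM + 1) and called at a Benjamini-Hochberg adjusted p below 0.05 over all genes of the table. The sum of the listed TPM also rose after mitosis, from 13747–17245 in mitotic CCNA-GFP libraries to 30992–42576 at 60 min, and the median gene rose with it. Changes are therefore given beside the median of all genes. Scaling every library to the same total changed the call of 105 of 280 changes of a factor between stages. It turned the direction of 84 of the 280, 40 of them called on at least 1 scale and 7 on both (the 10 changes at 50 min in CCNA-GFP rest on 1 library, with the spread taken from the other stages). Cases are given with the factors. Within each library the deposited values are whole multiples of a step of its own, so that each carries a factor that the sources used here do not name. Taking a step of 0.01 as a factor of 1, it ran from 2.17 to 3.81 in CCNA-GFP, from 1.86 to 2.80 in -IAA and from 1.84 to 2.49 in +IAA, and it moved with stage, at 2.30 to 2.91 in asynchronous, 2.81 to 3.48 in mitotic and 3.54 to 3.81 in 60 min CCNA-GFP libraries. A fit with this factor made equal across the libraries of a table was added after the data were seen, and it changed the call of 17 of the 280 changes between stages, which are given beside the results.

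No factor was called at 20 min in any arm. In the limma fit 0% of all genes was called higher at 20 min in CCNA-GFP, in -IAA and in +IAA, and at an unadjusted p below 0.05 the factors give 0 of 10, 1 of 10 (Klf4) and 0 of 10, beside 2.55%, 3.88% and 1.46% of all genes. At 30 min in CCNA-GFP, where 0.303% of genes were called higher, no factor was called and Klf4 and Klf5 were the 2 with an unadjusted p below 0.05, as were 11.5% of genes. Klf4 was called at 30 min without replicate 2 (adjusted p = 0.0035), among genes of at least 1 TPM (adjusted p = 0.033) and with the factor made equal (0.69 ± 0.17, adjusted p = 0.012). At 40 min 4 of 10 factors were higher in CCNA-GFP (Klf4, Klf2, Klf5 and Tbx3), where 49.3% of all genes were. With the factor made equal 8 of 10 were higher there, Esrrb, Zfp42, Nr5a2 and Nr0b1 in addition, beside 64.5% of genes. The same 4 and Nr0b1 were higher at 40 min in -IAA (63.3% of genes) and in +IAA (58.7%). The Nr0b1 call in -IAA was lost without replicate 1, without the block and at the same total. At 60 min the factors called were 9 of 10 in CCNA-GFP, all but Prdm14, beside 88.3% of genes, 9 of 10 in -IAA beside 84.8%, and 8 of 10 in +IAA beside 82.2%, where Tfcp2l1 was not called either. The +IAA call of Zfp42 (0.34, adjusted p = 0.047) was lost with the factor made equal (0.28, adjusted p = 0.12), without replicate 2 or 3 and without the block, which leaves 7 of 10 with the factor made equal, beside 79% of genes. These shares lie near those of all genes. The median change of the factors at 60 min was 1.12 on the log2 scale in CCNA-GFP against 0.79 for all genes, 0.95 against 0.63 in -IAA and 0.80 against 0.63 in +IAA.

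**Figure D1:**
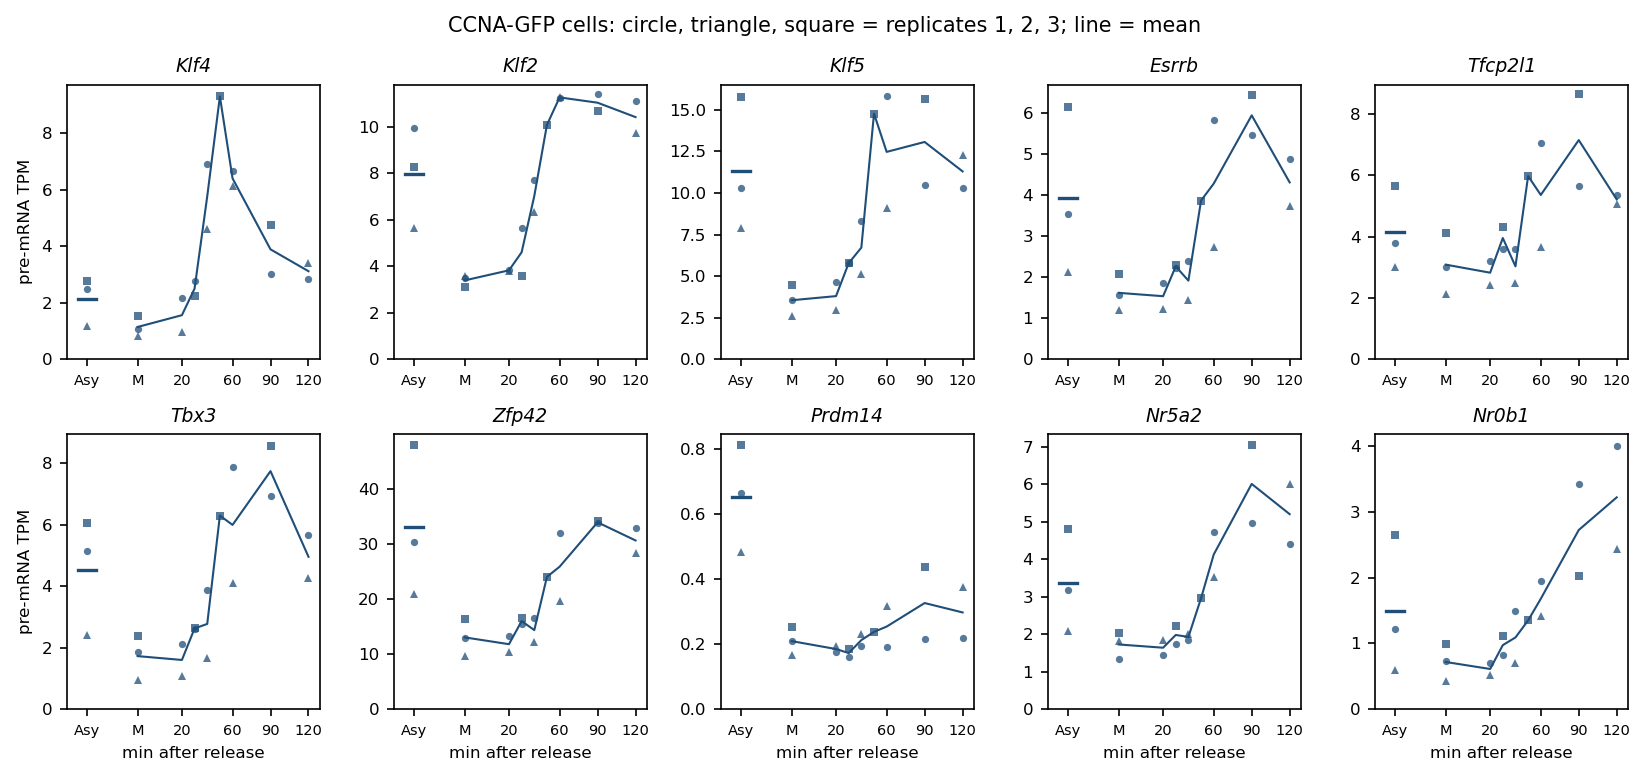
Pre-mRNA level (TPM, linear axis from 0) of each factor in CCNA-GFP cells against time after release, with Asy for asynchronous and M for mitotic cells; symbols are single libraries, the line joins the means and the bar is the asynchronous mean. Replicates differ between neighbouring times, and 50 min holds replicate 3 alone. Klf4 stands at 4.63 to 9.31 TPM from 40 to 60 min and at 2.83 and 3.41 TPM at 120 min. Prdm14, listed in this line through its asynchronous level alone, stays below all its asynchronous libraries at every time after release.

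Klf4, a target of LIF signalling, had risen most by 40 min and then fell back. In CCNA-GFP its mitotic libraries held 1.08, 0.830 and 1.52 TPM and its asynchronous libraries 2.49, 1.18 and 2.76 TPM. At 40 min it held 6.91 and 4.63 TPM, after 60 min 6.66 and 6.15 TPM, and after 120 min 2.83 and 3.41 TPM. Every library at 40 and 60 min thus lay above every mitotic and every asynchronous one. The rise from mitosis was 1.77 ± 0.17 (log2, SE; adjusted p = 2.5e-07) at 40 min, when the median gene had risen by 0.26, and 1.92 ± 0.17 (adjusted p = 3.3e-09) at 60 min. From 60 to 120 min it fell by 0.85 ± 0.19 (adjusted p = 0.0015), a fall that was called for 28.5% of all genes in that line.

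In CTCF-AID cells Klf4 followed the same course in both arms. Without IAA it went from 1.67, 1.07 and 1.79 TPM in mitosis to 6.11 and 5.84 TPM at 40 min, 6.04 and 8.22 TPM at 50 min and 1.87 and 3.19 TPM at 120 min. With IAA it went from 1.38, 1.08 and 1.80 TPM to 7.89 and 6.23 TPM at 40 min, 8.61 and 9.16 TPM at 50 min and 2.14 and 3.23 TPM at 120 min. The libraries at 120 min lie among those of asynchronous cells in -IAA (1.87 to 3.21 TPM), and 1 of 2 lies below all of them in +IAA. Between 60 and 120 min the fall was 0.86 on the log2 scale in each arm (limma adjusted p = 0.0012 and 0.0013), with 53.1% of genes in -IAA and 50.8% in +IAA falling. With every library at the same total its rise to 60 min and its later fall were also called in the 3 arms, at 0.99, 0.76 and 0.88 and at -0.65, -0.53 and -0.53.

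Klf2 and Klf5 had risen by 40 min. Klf2 held 3.48, 3.59 and 3.09 TPM in mitotic CCNA-GFP cells, 7.71 and 6.32 TPM at 40 min and 11.2 and 11.3 TPM at 60 min, and it was still at 11.1 and 9.73 TPM at 120 min. All libraries from 60 min on, apart from that of replicate 2 at 120 min, exceeded the highest asynchronous library (9.95 TPM). Its change was 0.83 ± 0.16 at 40 min and 1.45 ± 0.16 at 60 min (limma adjusted p = 0.00026 and 4.8e-08). Klf5 went from 3.59, 2.59 and 4.47 TPM to 8.30 and 5.14 TPM at 40 min and 15.9 and 9.09 TPM at 60 min, a change of 0.93 ± 0.17 and 1.72 ± 0.17 (adjusted p = 0.00019 and 1.4e-08). Its replicates are far apart, as are its asynchronous libraries (7.90 to 15.8 TPM), and those at 60 min overlap with them. In -IAA the changes at 60 min were 1.48 ± 0.17 for Klf2 and 1.1 ± 0.21 for Klf5, against a median gene of 0.63. Neither was called between 60 and 120 min in any arm, with -0.11 and -0.09 in CCNA-GFP, but Klf5 was called lower in CCNA-GFP without replicate 2 (-0.58, adjusted p = 0.044) and Klf2 in -IAA with the factor made equal (-0.39, adjusted p = 0.045). With every library at the same total, the 60 min call of Klf2 was kept in both arms of CTCF-AID only and that of Klf5 in CCNA-GFP only. At 40 min in CCNA-GFP the Klf2 call was lost at the same total and the Klf5 call without the block. In -IAA both 40 min calls were kept under either change.

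Tbx3, a T-box factor that favours self-renewal, rose at 40 min as well. In CCNA-GFP it went from 1.85, 0.930 and 2.39 TPM in mitosis to 3.87 and 1.67 TPM at 40 min, 7.88 and 4.10 TPM at 60 min and 5.65 and 4.25 TPM at 120 min. At 40 min the libraries overlap with the mitotic ones, because replicate 2 is low at both stages, and the change of 0.62 ± 0.13 (adjusted p = 0.00049) is one within replicates. At 60 min it was 1.52 ± 0.13 (adjusted p = 1.3e-09), higher in 2 of 2 replicates. In the CTCF-AID arms Tbx3 then fell, by 0.56 ± 0.16 in -IAA (adjusted p = 0.0052) and by 0.61 ± 0.16 in +IAA (adjusted p = 0.0028) from 60 to 120 min, and in CCNA-GFP the value was -0.19 ± 0.14 (adjusted p = 0.29). Both CTCF-AID falls were lost without the block (limma adjusted p = 0.25 and 0.21). The 2 lines were not tested against each other. At the same total the rise at 60 min remained called in all 3 arms and the fall in +IAA, but the 40 min change was called in no arm (0.22, 0.04 and 0.11), and neither was it without the block in CCNA-GFP and -IAA.

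Esrrb, a long gene, was not called at 40 min. It was at 1.57, 1.20 and 2.08 TPM in mitotic CCNA-GFP cells, 2.39 and 1.43 TPM at 40 min, and 5.82 and 2.72 TPM at 60 min. At 90 min it stood at 5.44 and 6.42 TPM and at 120 min at 4.88 and 3.72 TPM, within the span of asynchronous libraries (2.12 to 6.13 TPM) but for the higher one at 90 min. The change was 0.32 ± 0.15 at 40 min (adjusted p = 0.079; 0.48 and called with the factor made equal) and 1.14 ± 0.15 at 60 min (adjusted p = 5.4e-07). In -IAA it reached 4.70 and 3.68 TPM at 60 min from 2.26, 1.64 and 2.56 TPM in mitosis, a change of 0.84 ± 0.15, and then fell by 0.44 ± 0.16 to 120 min (adjusted p = 0.024; not called without replicate 1). In +IAA the fall was 0.47 ± 0.16 (adjusted p = 0.016; also not called without replicate 1). Both falls were also lost without the block (limma adjusted p = 0.20 and 0.17) and at the same total (-0.12 and -0.17). At the same total none of the 60 min changes of Esrrb was called, and the value in +IAA turned to -0.01, after -0.27 at 50 min, a time at which the deposited scale gave a called rise of 0.45.

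Nr5a2, the other orphan receptor and also a long gene, was not called at 40 min either. In CCNA-GFP it held 1.32, 1.83 and 2.02 TPM in mitosis, 1.84 and 2.01 TPM at 40 min, 4.72 and 3.54 TPM at 60 min and 4.97 and 7.05 TPM at 90 min. All libraries at 90 min exceeded the asynchronous ones, at 3.19, 2.10 and 4.80 TPM. Its change was 0.24 ± 0.16 at 40 min (adjusted p = 0.23; 0.42 and called with the factor made equal), 1.04 ± 0.16 at 60 min (adjusted p = 4.8e-06) and 1.29 ± 0.16 at 90 min. In CTCF-AID it was at 6.29 and 10.7 TPM at 90 min without IAA and at 6.04 and 10.6 TPM with it, with changes at 60 min of 1.02 ± 0.19 and 0.82 ± 0.19. Scaled to equal totals the 60 min change was not called in any arm (0.056 in CCNA-GFP, 0.21 in -IAA and 0.0041 in +IAA), the 40 min value turned to -0.18, -0.29 and -0.42, called lower in +IAA, and the 50 min value in -IAA turned from 0.49 (called) to -0.25.

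Nr0b1 rose to the end of the series in CCNA-GFP. From 0.732, 0.432 and 0.984 TPM in mitosis it reached 1.94 and 1.41 TPM at 60 min and 4.00 and 2.44 TPM at 120 min. It was the only factor called higher at 120 than at 60 min (0.64 ± 0.19, adjusted p = 0.011), a rise called for 9.6% of genes. Without replicate 1 this rise was not called, and the values with each replicate left out ran from 0.51 to 0.77. In -IAA its replicates split: replicate 1 went from 1.61 to 4.50 TPM at 60 min and 4.15 TPM at 120 min, and replicate 2 from 0.561 to 1.44 and 1.71 TPM. Within replicates the change at 60 min was 0.87 ± 0.14 (adjusted p = 5.7e-06) and that from 60 to 120 min 0.03 ± 0.16. Without the block the 60 min call was lost in -IAA and +IAA (adjusted p = 0.071 and 0.11), as was the CCNA-GFP rise from 60 to 120 min (adjusted p = 0.16), and at equal totals the 60 min call was lost in all 3 arms.

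Zfp42, the most abundant factor, was not called at 40 min on the deposited scale in any arm, while with the factor made equal it was called there in CCNA-GFP (0.56). The single CCNA-GFP library at 50 min gave a change of 0.51 within its replicate, with no error of its own. In CCNA-GFP it was at 13.0, 9.73 and 16.4 TPM in mitosis, 16.5 and 12.2 TPM at 40 min, 32.1 and 19.7 TPM at 60 min and 33.0 and 28.4 TPM at 120 min. The change was 1.1 ± 0.15 at 60 min and 1.37 ± 0.15 at 120 min (adjusted p = 5.3e-07 and 8.2e-08). In -IAA it held 37.3, 19.7 and 41.7 TPM in mitosis, 33.4 and 19.6 TPM at 40 min and 45.0 and 29.7 TPM at 60 min, so that the groups overlap. The change was -0.07 ± 0.16 at 40 min, and that of 0.43 ± 0.16 at 60 min (adjusted p = 0.015) was below the median gene at 0.63 and at percentile 32.1 of all genes. This call was lost without replicate 2 (0.31, adjusted p = 0.075) and without the replicate block (0.22, adjusted p = 0.64). At the same total Zfp42 was lower than in mitosis at 60 min in both CTCF-AID arms, -0.53 and -0.62, and higher at 120 than at 60 min in all 3 arms. In CCNA-GFP its 60 min change turned to -0.19 (not called).

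Tfcp2l1, a target of LIF and Stat3, had a small rise. In CCNA-GFP it went from 3.00, 2.13 and 4.13 TPM in mitosis to 7.04 and 3.68 TPM at 60 min, 0.80 ± 0.14 (adjusted p = 1.4e-05), close to the median gene. In -IAA mitotic cells (3.83, 3.86 and 4.14 TPM) it lay above all 3 asynchronous libraries (3.01, 3.74 and 3.25 TPM). It rose by 0.45 ± 0.18 at 60 min (adjusted p = 0.023; not called without replicate 2 or 3 or without the block). To 120 min it fell by 0.49 ± 0.20 (adjusted p = 0.034), a fall not called without replicate 1 or 3, without the block or at the same total (-0.16). Its change from mitosis at 120 min was -0.04. At the same total it was called lower than in mitosis at 60 min in all 3 arms, at -0.28 in CCNA-GFP and -0.36 and -0.46 in CTCF-AID, and also at 40 min, at -0.30, -0.45 and -0.48. In +IAA its fall from 60 to 120 min was not called (-0.45, adjusted p = 0.052), but was with the factor made equal (-0.44, adjusted p = 0.039).

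Prdm14 was not called higher than in mitosis at any time in any arm with all replicates. Without replicate 1 it was called higher at 120 min in CCNA-GFP (0.28, adjusted p = 0.029) and at 60 min in -IAA and +IAA (0.25 and 0.26, adjusted p = 0.017 in each). With equal totals it was instead called lower than in mitosis at 40 min (-0.33 and -0.24) and 60 min (-0.24 and -0.27) in -IAA and +IAA, and at each later time and 50 min in both, while in CCNA-GFP it was not called. It held 0.209, 0.166 and 0.253 TPM in mitotic CCNA-GFP cells, 0.190 and 0.318 TPM at 60 min and 0.220 and 0.375 TPM at 120 min, and 0.667, 0.484 and 0.814 TPM in asynchronous cells. No library after release reached the lowest asynchronous one. The deposited table holds genes above 0.5 TPM in asynchronous cells on average or in 2 or more samples after release, and since no released CCNA-GFP library exceeds 0.437 TPM, Prdm14 is listed there through its asynchronous level alone, so that this difference was favoured by the filter. The changes of 0.10 ± 0.08 at 60 min and 0.14 ± 0.08 at 120 min were not called (adjusted p = 0.24 and 0.08), and at 60 min the change was at percentile 7.07 of all genes. Since the pseudocount of 1 TPM understates changes of a gene this low, a pseudocount of 0.1 TPM was also used, and it gave 0.31 ± 0.23 at 60 min and 0.47 ± 0.23 at 120 min, also not called. In -IAA, where mitotic libraries held 0.652, 0.366 and 0.725 TPM and asynchronous ones 1.08, 0.673 and 1.06 TPM, the libraries at 120 min (0.388 and 0.531 TPM) lay below all asynchronous ones, but libraries at 50, 60 and 90 min reached 0.702, 0.682 and 0.842 TPM, above the lowest asynchronous one.

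**Figure D2:**
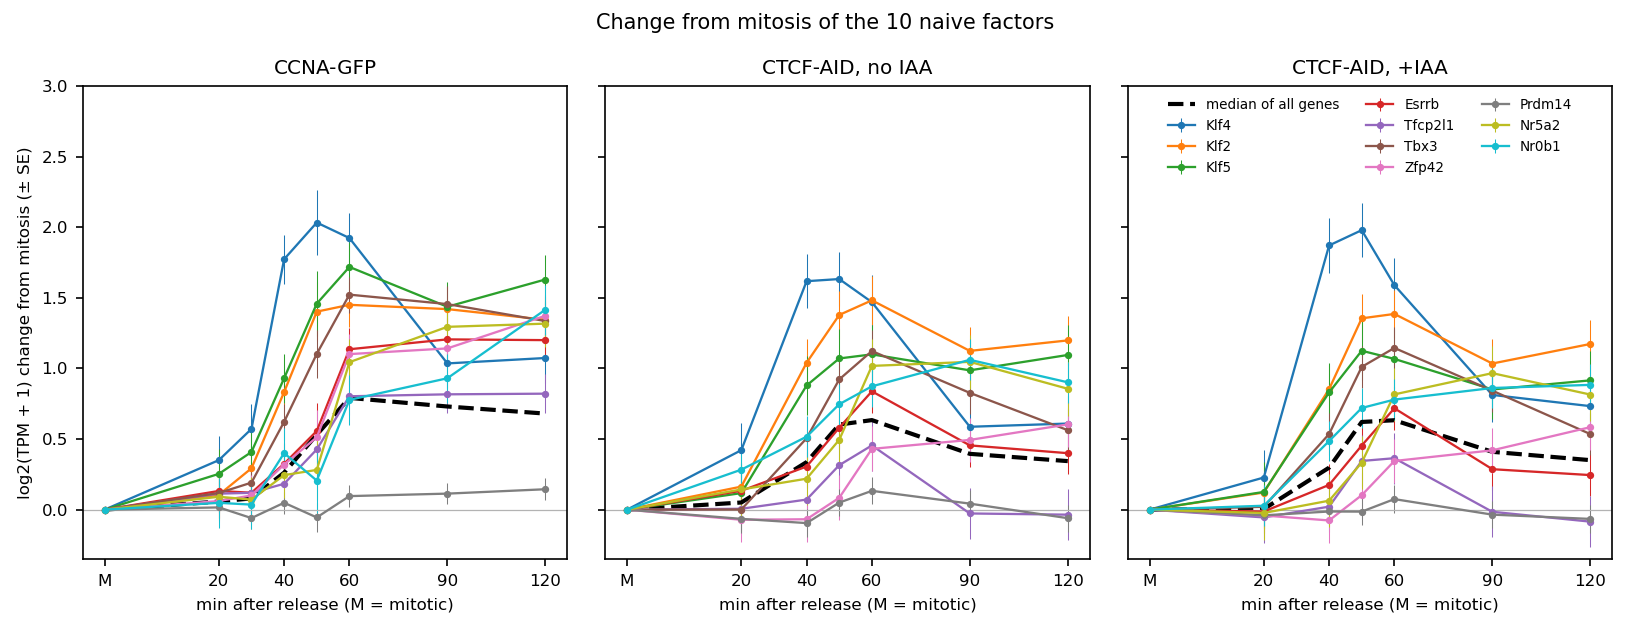
Change from mitosis of log2(TPM + 1) with its SE (limma, within replicates) for each factor against time after release, in CCNA-GFP, -IAA and +IAA cells; the dashed line is the median of all genes. Klf4 stands highest at 40 min in each arm (1.77, 1.62 and 1.87), Prdm14 stays near 0, and the 50 min point of CCNA-GFP rests on 1 library.

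At 120 min 9 of 10 factors were higher than in mitosis in CCNA-GFP (90.2% of genes), 8 in -IAA (69.6%) and 7 in +IAA (68.2%). At the same total 5 were higher in CCNA-GFP, where Klf4, Klf2, Tfcp2l1 and Zfp42 were lost, and 4 in -IAA. In +IAA Klf4, Klf2, Klf5, Nr5a2 and Nr0b1 were higher on that scale. Tfcp2l1 and Prdm14 were called lower than in mitosis in both CTCF-AID arms there. The share of all genes called at 120 min on that scale is not given here. On the deposited scale the CTCF-AID counts depend on the block, without which they were 3 and 3, and on the replicates, with 4 to 8 and 2 to 8 when each was left out (the lowest without replicate 2). With the factor made equal Esrrb was no longer called in -IAA (0.34, adjusted p = 0.056). Asynchronous cells were higher than mitotic ones for 10 of 10 factors in CCNA-GFP, where 70.4% of genes were, for 7 in -IAA (34.3%) and for 6 in +IAA (40.9%), and with the factor made equal also for Nr5a2 in -IAA (0.61; 66% of genes) and Esrrb in +IAA (0.43; 67.1%). The 10 include Prdm14, whose difference in CCNA-GFP was favoured by the filter on the listed genes, as said above. The median difference of the factors was 0.74 against 0.33 for all genes in CCNA-GFP, 0.40 against 0.12 in -IAA and 0.45 against 0.15 in +IAA. Klf5 led in each arm, at 1.41, 1.00 and 0.86. With the factor made equal the median gene stood at 0.46, 0.28 and 0.29, and Klf5 in CCNA-GFP at 1.62. At the same total 6 of the 10 (Klf2, Klf5, Esrrb, Tbx3, Zfp42 and, favoured by the filter, Prdm14) remained called in CCNA-GFP, beside 2457 of 9911 genes called higher. In -IAA 6 were higher on that scale (Klf4, Klf2, Klf5, Esrrb, Zfp42 and Prdm14; 2781 of 10237 genes) and in +IAA 5 (Klf4, Klf2, Klf5, Tbx3 and Zfp42; 3048 of 10237), and Tfcp2l1 was lower in both, at -0.36 and -0.35.

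Against asynchronous cells, released cells at 120 min were higher for 6 of 10 factors in CCNA-GFP (Klf4, Esrrb, Tfcp2l1, Tbx3, Nr5a2 and Nr0b1), beside 63.4% of genes. In -IAA they were higher for Nr5a2 and Nr0b1, beside 51% of genes, and in +IAA for Nr0b1, beside 47.2%. Nr0b1 had the largest difference, 0.95 ± 0.18 in CCNA-GFP, 0.84 ± 0.14 in -IAA and 0.80 ± 0.14 in +IAA (adjusted p = 0.00013, 3.8e-05 and 6.7e-05), and it was called at the same total in each. Without the block it was called in CCNA-GFP only. On the deposited scale Prdm14 was the only factor called lower, at -0.30 ± 0.08 in CCNA-GFP (adjusted p = 0.00185; 5.86% of genes were lower; a difference favoured by the filter on the table, as said above) and -0.35 ± 0.10 in -IAA (adjusted p = 0.0035; 7.25% of genes). In +IAA its value was -0.15 ± 0.10 (adjusted p = 0.18). With equal totals Prdm14 was lower in all 3 arms, and so was Zfp42 (-0.40, -0.36 and -0.26), which on the deposited scale stood at 0.14, 0.02 and 0.10. Also lower at the same total were Esrrb in -IAA and +IAA (-0.32 and -0.28) and Klf4 in +IAA (-0.35), and the calls of Esrrb and Tbx3 in CCNA-GFP turned to -0.07 and -0.10 (not called). The counts depend on replicate 2, without which 1 factor was higher at 120 min than in asynchronous cells in CCNA-GFP and 1 in -IAA, Nr0b1 both times, and without replicate 1 Prdm14 was not called in either. They also depend on the factor of each library. With it made equal the factors higher were Nr5a2 and Nr0b1 in CCNA-GFP (29.1% of genes) and Nr0b1 alone in -IAA (20.9%). Prdm14 was then lower in all 3 arms, at -0.40, -0.51 and -0.28, beside 8.66%, 18.6% and 18.6% of genes.

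Across all genes the change differed between classes of gene length. At 40 min in CCNA-GFP the median change was 0.49 for 2476 genes under 10 kb, 0.29 for 4938 genes of 10 to 50 kb and 0.09 for 2471 genes over 50 kb, and at 60 min it was 0.99, 0.86 and 0.46. Klf4 and Klf2 belong to the first class and lay above its median at 40 min, at 1.77 and 0.83, and Nr0b1 below it at 0.40. Esrrb, Nr5a2 and Tfcp2l1 belong to the last class and exceeded its median at both times, at 0.32, 0.24 and 0.18 and at 1.14, 1.04 and 0.80. Of the middle class, Klf5, Tbx3 and Zfp42 (0.32 and 1.1) were above the class median at both times and Prdm14 below it. In -IAA the 3 class medians were 0.68, 0.36 and 0.06 at 40 min and 0.83, 0.66 and 0.37 at 60 min, and there Zfp42 lay below that of its class, at -0.07 and 0.43. The part of length in the order of the factors was not tested.

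Degradation of CTCF was compared at each stage of CTCF-AID cells (+IAA against -IAA, called at an adjusted p below 0.1 and an absolute log2 change above 0.2). In the limma fit without a block no factor was called at any of the 8 stages or for the mean over 20 to 120 min. The share of all genes called was 0% in mitosis, at 20 and at 40 min, 0.283%, 0.225%, 0.733% and 0.586% at the times of 50, 60, 90 and 120 min, 1.01% in asynchronous cells and 1.72% for the mean. At an unadjusted p below 0.05 only Prdm14 in asynchronous cells passed, 1 of 10 there beside 2.79% of all genes, and 0 of 10 elsewhere beside 0.225% to 4.46%. The difference between the arms in the change from mitosis to 60 min was not called for any factor (interaction, 0 of 10 called, also 0 of 10 at an unadjusted p below 0.05, beside 2.09% of genes; 0.156% of genes called), and the same held for released against asynchronous cells (0 of 10 and 0 of 10, beside 2.75%; 0.127% of genes called). The mean effect over 20 to 120 min ran from -0.10 (Esrrb, ± 0.11) to 0.09 (Klf4, ± 0.11).

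Libraries of the same stage and replicate number deviate together, and a comparison within these pairs, added after the data were seen, has a smaller error. In it 2 factors were called in asynchronous cells, where 3.94% of genes were. Klf4 was higher with IAA in 3 of 3 pairs, 3.09 against 2.18, 3.01 against 1.87 and 3.45 against 3.21 TPM, a difference of 0.31 ± 0.08 (adjusted p = 0.037). Prdm14 was lower in 3 of 3 pairs, 0.610 against 1.08, 0.520 against 0.673 and 0.719 against 1.06 TPM, a difference of -0.26 ± 0.04 (adjusted p = 0.00135). In mitosis and after release no factor was called in this comparison, with 8 of 10 at an unadjusted p below 0.05 for the mean over 20 to 120 min, as were 26.9% of all genes. The 12 pairs after release come from 3 replicates, and the fit treats pairs of 1 replicate at different times as independent. Its errors and p-values for that mean thus measure the spread over pairs, not over replicates. Esrrb was lower with IAA in 12 of 12 pairs after release, as were 3.38% of all genes, with a mean of -0.10 ± 0.03 (adjusted p = 0.043), and Zfp42 in 11 of 12 with -0.08 ± 0.02 (adjusted p = 0.03), both under the minimum size of 0.2. Nr5a2 was also lower in 11 of 12 pairs, where 9.66% of genes were lower in 11 or more, and Klf5, Tbx3 and Prdm14 in 10 of 12, where 19.4% were lower in 10 or more. Klf4 was higher in 10 of 12 pairs, as were 2.94% of genes in 10 or more. The 2 pairs in which Klf4 was lower were those at 20 min (-0.23 and -0.26). With the factor made equal Klf4 was still higher in 10 of 12 pairs. On that scale Prdm14 was lower in 9, Esrrb in 8 (mean -0.06, adjusted p = 0.59) and Zfp42, Nr5a2, Klf5 and Tbx3 in 7. The shares of all genes above hold for the deposited scale only. With the factor made equal the mean effect of the median gene was 0.011. The 2 calls in asynchronous cells were kept there, Klf4 at 0.35 and Prdm14 at -0.26 (adjusted p = 0.014 and 0.00502). The difference between released and asynchronous cells was not called for any factor within pairs either, with an unadjusted p below 0.05 for Klf4, Nr5a2 and Prdm14, as for 10.8% of all genes, and a lowest adjusted p of 0.11.

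**Figure D3:**
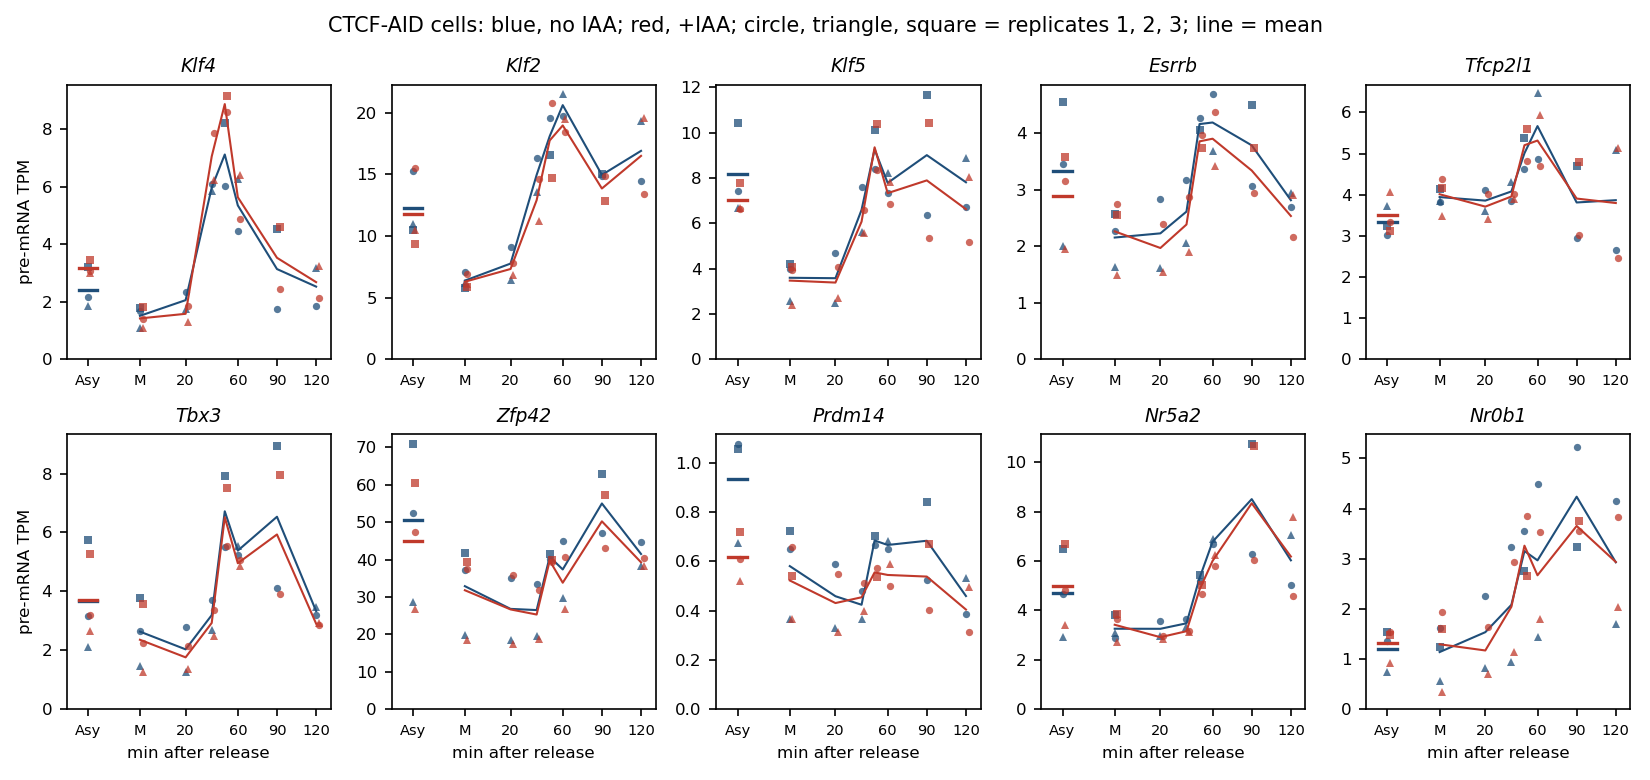
Pre-mRNA level (TPM, linear axis from 0) of each factor in CTCF-AID cells without IAA (blue) and with IAA (red) against time after release, with Asy for asynchronous and M for mitotic cells; symbols are single libraries and lines the means. The arms run close to each other, and in asynchronous cells Klf4 with IAA lies above and Prdm14 below the partner library of the same replicate in 3 of 3 pairs.

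**Figure D4:**
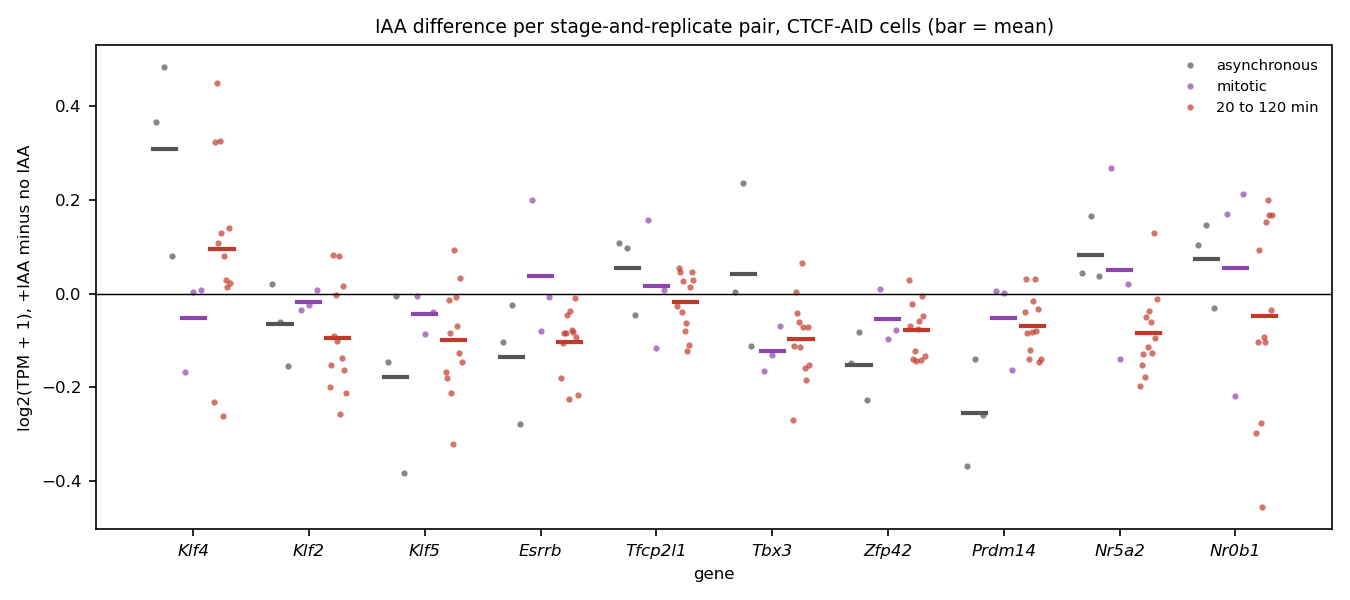
Difference in log2(TPM + 1) between the +IAA and the -IAA library of the same stage and replicate, for each factor; points are pairs (3 asynchronous, 3 mitotic and 12 from 20 to 120 min) and bars their means. All 12 post-mitotic points of Esrrb lie below 0 on the deposited scale.

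The partners and inputs of the network were described from lists. Pou5f1 (Oct4) and Nanog rose from mitosis to 60 min by 1.20 ± 0.15 and 1.22 ± 0.16 in CCNA-GFP and by 0.59 ± 0.18 and 0.61 ± 0.16 in -IAA, and both fell to 120 min, by 0.52 and 0.90 in CCNA-GFP and by 0.65 and 1.02 in -IAA (limma adjusted p at most 0.0135). Nanog was at 4.90 ± 2.00 TPM at 120 min and 9.66 ± 0.217 TPM at 60 min in CCNA-GFP (n = 2). Of 9 genes of LIF and Wnt signalling, 2 were higher at 40 min and 9 at 60 min in CCNA-GFP, beside 49.3% and 88.3% of all genes, led by the kinase Jak1 (1.82 ± 0.13), Gsk3a (1.44 ± 0.14) and Gsk3b (1.16 ± 0.13), and Jak1 fell by 1.12 ± 0.14 to 120 min. Their median at 60 min was 1.1 against 0.79 for all genes. In -IAA 4 were higher at 40 min and 7 at 60 min, beside 63.3% and 84.8% of all genes, with a 60 min median of 0.74 against 0.63.

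Of 13 other genes of the naive state listed in CCNA-GFP, 8 were higher at 40 min and 10 at 60 min, beside 49.3% and 88.3% of all genes, with Gbx2 (1.42 ± 0.25) and Dppa5a (1.19 ± 0.14) leading at 40 min and Dppa5a (1.90 ± 0.14) at 60 min. Their median at 60 min was 1.09 against 0.79 for all genes. In -IAA it was 0.59 against 0.63 for 14 genes, of which 11 were called beside 84.8% of all genes. The 11 include Dppa3, listed in CTCF-AID only, with asynchronous means of 0.342 TPM in -IAA and 0.444 TPM in +IAA. These lie under the asynchronous limit of the filter on the table, so that Dppa3 was listed through its released libraries. Its rise (0.84) was thus favoured by the filter. Of 6 formative or primed genes listed in CCNA-GFP, 1 was higher at 40 min (Zic2, 1.34 ± 0.14) and 6 at 60 min, against the same shares of all genes, with a median of 0.67 against 0.79. In -IAA 3 of 7 were higher at 40 min and 6 of 7 at 60 min, beside 63.3% and 84.8% of all genes. The 60 min median was 0.57 against 0.63. Both counts include Otx2, with asynchronous means of 0.469 TPM in -IAA and 0.453 TPM in +IAA. Otx2 was thus also listed through its released libraries, and its rise was favoured by the filter. In CCNA-GFP Zic2 rose by 2.15 ± 0.14 to 60 min and fell by 0.89 ± 0.15 to 120 min. In -IAA it rose by 2.21 ± 0.27 and fell by 1.04 ± 0.29.

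The genes whose course was most like that of a factor were found over stage means of log2(TPM + 1), by the lower of the Pearson r over 9 CCNA-GFP stages and over 8 -IAA stages. For Klf4 this was Ing2 (r = 0.993 and 0.997), for Klf2 Ddx17 (0.99 and 0.99), for Klf5 Tra2a (0.98 and 0.97), for Esrrb Tead2 (0.99 and 0.99) and for Tbx3 Cnep1r1 (0.999 and 0.989). Nr5a2 was most like Cep83 (0.999 and 0.995), Zfp42 like B230307C23Rik (0.99 and 0.97), Tfcp2l1 like Kank2 (0.98 and 0.95) and Nr0b1 like Adar (0.97 and 0.97). Prdm14 had no gene above 0.9 in both, with Mettl5 nearest (0.89 and 0.91), whereas 978 genes passed that mark for Tbx3 and 529 for Klf4. The stages share libraries' depth and the general rise after mitosis, and the values are a description only.

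With every library set to the same total, 36.4% of genes were higher and 33.3% lower at 60 min in CCNA-GFP, and 3 factors (Klf4, Klf5 and Tbx3) were higher and 1 (Tfcp2l1) lower. In -IAA 39.4% were higher and 31.1% lower, with Klf4, Klf2 and Tbx3 higher and Tfcp2l1, Zfp42 and Prdm14 lower. Klf4 and Tbx3 were thus called higher on both scales in both lines.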

How the data were processed

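Total RNA of the 55 libraries was ribo-depleted and sequenced stranded and paired-end. The authors mapped to mm10 (STAR) and ran RSEM with a Gencode vM12 annotation extended by an unspliced isoform per gene. The deposited TPM are those of this isoform, for RefSeq curated genes above 0.5 TPM in asynchronous cells on average, or in 2 or more samples after release. TPM hold no read counts, so depth and counting error are unknown, and every test rests on how replicates, described by the study as independent, vary. Reads are shared between the spliced isoforms and the pre-mRNA, so the estimate is less sure where exons cover most of a gene. Headers of the asynchronous CTCF-AID libraries are garbled and were read through the authors' supplementary column names. Each library's deposited TPM carry a factor not named in the sources used here, read from the step between its values, of which all under 1000 steps came out whole within 0.02 of a step.

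Tests used limma 3.58.1 in R 4.3.3 on log2(TPM + 1) with a mean trend and Benjamini-Hochberg adjustment over all genes. Stages were compared with the replicate number as a block, IAA arms without it. The numbers pair the libraries: the residuals of same-numbered libraries around their stage means had r above 0.1 in 41 of 41 pairs in CCNA-GFP (median r 0.55) and in 182 of 182 in CTCF-AID (median r 0.52). Where 2 stages hold the same 2 replicates, both numbers give the same r, so these are not as many separate checks. Differently numbered libraries were not compared. The largest share of values identical between 2 libraries was 0.342%. The fits were tested on simulated data. Other steps used Python 3.11.15 with pandas 2.3.3, numpy 2.4.6 and matplotlib 3.10.9. Positions are from Gencode vM21 and promoters from RefSeq (GRCm38.p6). Named besides the factors were Pou5f1 and Nanog, at most 4 genes with the largest called changes of each list, and the genes most alike in course among genes averaging 1 TPM or more in both tables. The factors and lists were chosen with earlier results of these data known. The alternatives were the block, the same total in every library, a pseudocount of 0.1 TPM, a floor of 1 TPM on a gene's mean, and each replicate left out. Added after seeing the data were the comparison within pairs and the library factor removed, made equal, or made equal within pairs.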

Additional observations from a re-analysis of the deposited data

Results flagged for a closer look

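For 3 factors every replicate moved one way in CCNA-GFP and the opposite way in -IAA cells. These differences between the lines were not tested, since their tables were normalised apart, and chance alone gives some with 2 or 3 replicates. Tfcp2l1 was higher in asynchronous than in mitotic cells in CCNA-GFP (0.33, log2) and lower in -IAA (-0.19, not called), and at the same total in every library the CCNA-GFP value was -0.14, while with the factor of each library made equal the -IAA value turned to 0.028. Zfp42 was higher than in mitosis in CCNA-GFP at 20 min (0.061) and 40 min (0.32) and lower in -IAA (-0.072 and -0.068), none of them called, though with the factor of each library made equal the CCNA-GFP value at 40 min was 0.56 and called, and the -IAA value at 20 min turned to 0.0014. Prdm14 was higher at 120 than at 60 min in CCNA-GFP (0.049) and lower in -IAA (-0.19), neither called.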

How the results depend on the processing

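Of 190 alternative values of the counts of factors called, 152 stayed within 1.5 times. These include every count of 0 that stayed at 0, and all IAA and interaction counts were 0 in the fit reported. At the same total 11 counts fell below that range, and without the replicate block 10 did. Without the replicate block the factors higher than in mitosis were 2 at 40 min in CCNA-GFP (Klf4 and Klf2), 3 at 40 min in -IAA and in +IAA, and 3 at 120 min in each CTCF-AID arm. Those lower at 120 than at 60 min were 1 in -IAA and 1 in +IAA, Klf4 both times, and those higher at 120 min than in asynchronous cells were 1 in CCNA-GFP and 0 in each CTCF-AID arm. With every library at the same total the counts higher than in mitosis were 2, 3 and 5 in CCNA-GFP at 40, 60 and 120 min. They were 3, 3 and 4 in -IAA, and 3 and 3 at 40 and 60 min in +IAA (shares of all genes are given above for 60 min in CCNA-GFP and -IAA only). There 1 factor was lower at 120 than at 60 min in -IAA, 1 was higher than in asynchronous cells in CCNA-GFP and 1 in -IAA, and 1 (Prdm14, -0.28) differed with IAA in asynchronous cells, against 2 in the comparison by replicate block within each stage. The planned replicate block for the IAA comparisons called 0 factors, as did each replicate left out.

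Leaving out each replicate gave, at 120 against 60 min, 1 to 2 factors lower in CCNA-GFP and 2 to 4 in -IAA. Against asynchronous cells 1 to 7 were higher in CCNA-GFP, 1 to 5 in -IAA and 1 to 5 in +IAA, and against mitosis at 120 min 4 to 8 in -IAA and 2 to 8 in +IAA. At the same total these changes turned direction: from mitosis to 60 min Tfcp2l1 (-0.28 in CCNA-GFP, -0.36 in -IAA), Zfp42 (-0.19 and -0.53) and Prdm14 (-0.17 and -0.24); from 60 to 120 min Klf2 (0.069 and 0.10), Klf5 (0.091 and 0.35) and, in -IAA, Nr5a2 (0.18). With a replicate left out the 60 to 120 min change turned in CCNA-GFP for Klf5 (-0.58 to 0.40), Esrrb (-0.21 to 0.34), Tfcp2l1 (-0.34 to 0.38), Tbx3 (-0.42 to 0.043) and Nr5a2 (-0.082 to 0.63), and in -IAA for Klf5 (-0.11 to 0.10), Zfp42 (-0.0097 to 0.36), Nr5a2 (-0.35 to 0.028) and Nr0b1 (-0.094 to 0.15). None of these 9 was called in the fit reported. With the library factor removed or made equal (both chosen after seeing the data) the counts were 7 and 8 higher than in mitosis at 40 min in CCNA-GFP, and 2 in CCNA-GFP and 1 in -IAA higher at 120 min than in asynchronous cells under both. The 60 to 120 min change turned for Klf5 in CCNA-GFP (0.013 and 0.018) and Nr0b1 in -IAA (-0.036 and -0.041). Made equal within pairs it gave 2 factors called with IAA in asynchronous cells. The causes were not tested. By the change within replicates in place of mean TPM, the time of the highest level moved for 15 of 30 factor and arm pairs. TPM give no counts, so what depth limits is unknown.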
